A study of Mus musculus with 32 samples.

Results

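The common lymphoid progenitor (CLP) is the bone marrow cell that stands at the entry to the B, T, natural killer and plasmacytoid dendritic cell lineages. CLPs of 20 month old mice (aged) were set against CLPs of 10 week old mice (young), which makes 4 CLP libraries, 2 per age, out of 32 libraries in all. The study sorted 8 stem and progenitor fractions from the marrow of female C57BL/6 mice at both ages and sequenced their polyadenylated RNA, to find how each fraction's transcriptome differs with age. No treatment or genetic change is given for any group, so the groups differ by age alone as far as the labels say. CLPs were sorted as cells that carried the IL-7 receptor, stained low for c-Kit and low for Sca-1, and lacked lineage antigens, the lineage antibodies being those to Gr-1, Ter-119, B220, CD4 and CD8. The study's methods call the duplicates independent in one place and describe duplicate sorts from marrow pooled by age in another. The p-values here therefore measure the spread between these libraries, which may be technical.

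CLPs survive and divide on signals of the IL-7 receptor and of Flt3. Commitment to B cells runs through E2A (Tcf3), Foxo1, Ebf1 and Pax5, which turn on the recombinase (Rag1, Rag2), terminal transferase (Dntt), the surrogate light chain (Igll1, Vpreb1) and the signalling chains Cd79a and Cd79b. A separate branch, driven by Tcf4 and Irf8, leads to plasmacytoid dendritic cells, which make interferon and carry B220 on their surface in mice. B cell output from marrow is known to fall with age.

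The deposited table held read counts for 24421 genes, with 12705870 and 12978956 counts in the 2 young CLP libraries and 14011071 and 13983503 in the 2 aged ones (11237384 to 17723245 over the series). Levels are given in CPM, read counts scaled to the library size after TMM adjustment, and 3 counts, the floor used for genes without reads, came to 0.223 to 0.247 CPM. The genes of the CLP gate were measured in all 4 libraries. Il7r, a sort antigen, stood at 157 and 159 CPM in the young and 201 and 190.00 CPM in the aged libraries, and at no more than 13.4 CPM in any other young fraction. Neither Il7r nor Flt3 (616 and 605 to 675 and 742 CPM) nor Kit (98.4 and 99.8 to 73.6 and 97.3 CPM) passed the test, with adjusted p of 0.363, 0.404 and 0.201. Dntt stood at 1714 and 1766 CPM in the young and 1880.5 and 2302 CPM in the aged libraries, and at 713 CPM in the young lymphoid-primed fraction MPP4. Ly6d, another CLP marker, stood at 1181 and 1199.6 CPM in the young and 936 and 971 CPM in the aged libraries. It reached no more than 4.18 CPM in any other young fraction. The markers Rag1 and Ebf1 were lower in the aged libraries, and of these only Ebf1 was called. Lymphoid marker genes were thus present at both ages, though not all at the same level. Defining T cell genes were low, and near the floor in the aged libraries only: Cd3e reached 2.63 and 2.35 CPM in the young and 0.386 and 0.446 CPM in the aged libraries, and was not called. The stem cell gene Hlf was also low, at 6.00 and 4.62 CPM in the young and 4.63 and 4.24 CPM in the aged libraries, and Mecom, which rose, reached no more than 2.97 CPM. Myeloid and basophil genes were present, and are described with their groups.

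Of 14154 genes tested, 808 were higher (5.71%) and 670 lower (4.73%) in aged CLPs at an adjusted p under 0.01 (edgeR's quasi-likelihood test, with the spread estimated over all 32 libraries). Of these, 228 rose and 236 fell by 2-fold or more. The 2 ages did not overlap in CPM at 807 of the 808 higher genes and at all 670 lower genes, against 59.3% of all genes tested. The exception was Ly6c1, a Ly6 family surface protein gene with 0 counts in 3 libraries and 520 in aged replicate 2. Its reads cannot be separated with confidence from those of its neighbour Ly6c2, and the sum of both genes went from 219 and 220.2 CPM to 520.1 and 421 CPM. The counts of called genes rested on the spread shared across fractions: with the 4 CLP libraries fitted alone, which leaves 2 residual degrees of freedom, 40 genes were higher and 88 lower. Without aged replicate 1 they were 317 and 257, and without young replicate 1 or 2 they were 342 and 357 or 390 and 352, while without aged replicate 2 they were 817 and 679. In the groups that follow, a direction with 0 members called in edgeR carries in brackets the members at an unadjusted p under 0.05 and those called by DESeq2.

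**Figure D1:**
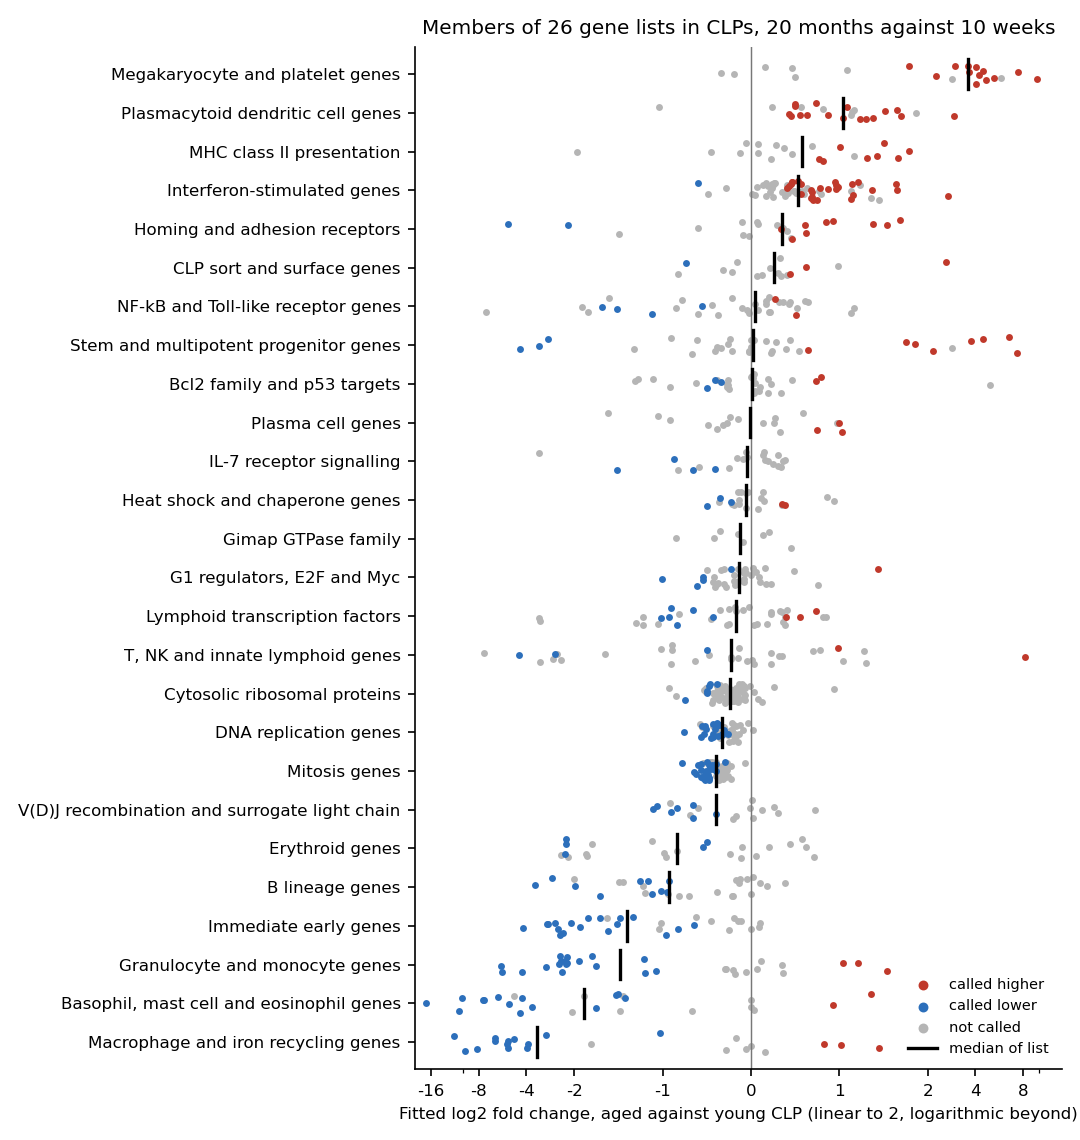
Fitted log2 fold change of aged against young CLPs (x axis, linear to 2 and logarithmic beyond) of every tested member of the 26 gene lists (y axis), with called genes coloured by direction, uncalled genes in grey and the list median as a bar. The megakaryocyte list has its median at 3.59 and the macrophage list at -3.45.

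The largest changes were taken from called genes at mean levels of 10 CPM or more without overlap between the ages. Among the 10 largest rises were the platelet genes Vwf, Ppbp and Pf4, the kallikreins Klk1 and Klk1b27, the interferon-inducible GTPase Iigp1 and the Sca-1 gene Ly6a. Among the 10 largest falls were the basophil genes Prss34, Mcpt8, Fcer1a and Ms4a2, the complement genes C1qb and C1qc, the ficolin gene Fcna, the lipoxygenase gene Alox15 and the neutrophil genes Elane and Ms4a3. The remaining rises were Myh13, a myosin heavy chain gene (1.89 and 2.03 to 27.5 and 12.8 CPM), and Csprs (8.13 and 7.37 to 55.2 and 39.8 CPM) and Gm7609 (3.12 and 3.00 to 25.7 and 19.3 CPM). Csprs belongs to a multi-copy gene region, so how its reads were shared among copies is uncertain. Calls lost with a library left out were those of Myh13 (adjusted p 0.0124 to 0.131 without any 1 library), Gm7609 (0.0154 to 0.0674 without any 1 library), Klk1b27 (0.0352 to 0.0719 without young replicate 1, young replicate 2 or aged replicate 1) and Ly6a (0.0189 to 0.0220 without young replicate 1 or young replicate 2). Not called by DESeq2 were Myh13, Klk1, Klk1b27 and Ly6a (adjusted p 0.852, 0.877, 0.896 and 0.0242).

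**Figure D2:**
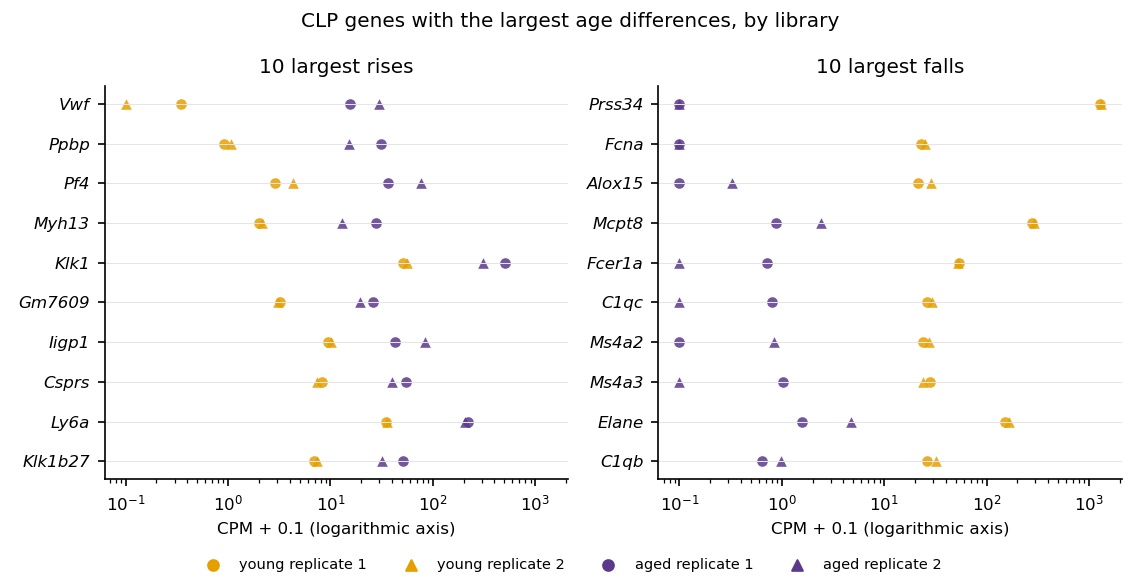
CPM on a logarithmic axis (x, with 0.1 added so that 0 can be drawn) of the 10 largest rises and 10 largest falls (y, 1 gene per line) in the 4 CLP libraries, young in orange and aged in purple, circles for replicate 1 and triangles for replicate 2. The genes were chosen for no overlap between the ages, so the young and aged points of a gene lie apart by that choice. Klk1 lies at 51.2 and 56.5 CPM in the young and at 504 and 310.4 CPM in the aged libraries.

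Megakaryocyte and platelet genes were higher in aged CLPs. Of 21 members tested, 13 rose and 0 (1 unadjusted, 0 in DESeq2) fell, with a median log2 fold change of 3.59 (2.99 with the genes that had no reads at one age set to their bound), against a median of 0 over all genes. Vwf (chr6:125546774-125686679, GRCm38), which encodes the von Willebrand factor that tethers platelets, had 3 and 0 counts in the young and 198 and 398 in the aged libraries, a ratio of 184 (95% counting interval 62.8 to 897) (adjusted p 2.05e-09). Pf4 (chr5:90772435-90773383), platelet factor 4, was measured at 2.79 and 4.21 CPM in the young and 36.4 and 77.2 CPM in the aged libraries. Pf4 changed by 4.02 ± 0.41 (SE) on the log2 scale, adjusted p 5.02e-07. Ppbp (chr5:90768518-90770063), a chemokine of platelet granules, was measured at 0.822 and 0.972 CPM in the young and 31.1 and 15.1 CPM in the aged libraries. Ppbp changed by 4.67 ± 0.56 (SE) on the log2 scale, adjusted p 6.84e-06. For all of these both aged libraries lay above both young ones, but the aged libraries themselves were apart, Ppbp being higher in replicate 1 and Vwf and Pf4 in replicate 2. Treml1, a receptor of platelet granules, had no reads in either young library and 46 and 168 counts in the aged, at least 32.8-fold higher (adjusted p 2.35e-05). Gp9, a subunit of the von Willebrand factor receptor, went from 1.40 and 1.22 to 3.78 and 5.28 CPM (1.79, adjusted p 1.80e-04). P-selectin (Selp) rose as well, from 3 and 0 counts to 56 and 71. The integrin genes Itga2b (33.6 and 29.7 to 32.1 and 57.1 CPM, adjusted p 0.0310) and Itgb3 (29.01 and 24.1 to 56.3 and 56.4 CPM, adjusted p 0.0170) did not pass the test, though Itga2b did without aged replicate 1 and in DESeq2 (adjusted p 1.53e-05 and 0.00739). The list's summed level was 533 and 521 CPM in the young and 743 and 856 CPM in the aged libraries. With one library left out the number of members higher was 12 to 14, and with the 4 CLP libraries alone it was 3. In bulk samples, a change in how many cells of a type were sorted and a change in RNA per cell cannot be told apart, here and in all groups that follow.

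**Figure D3:**
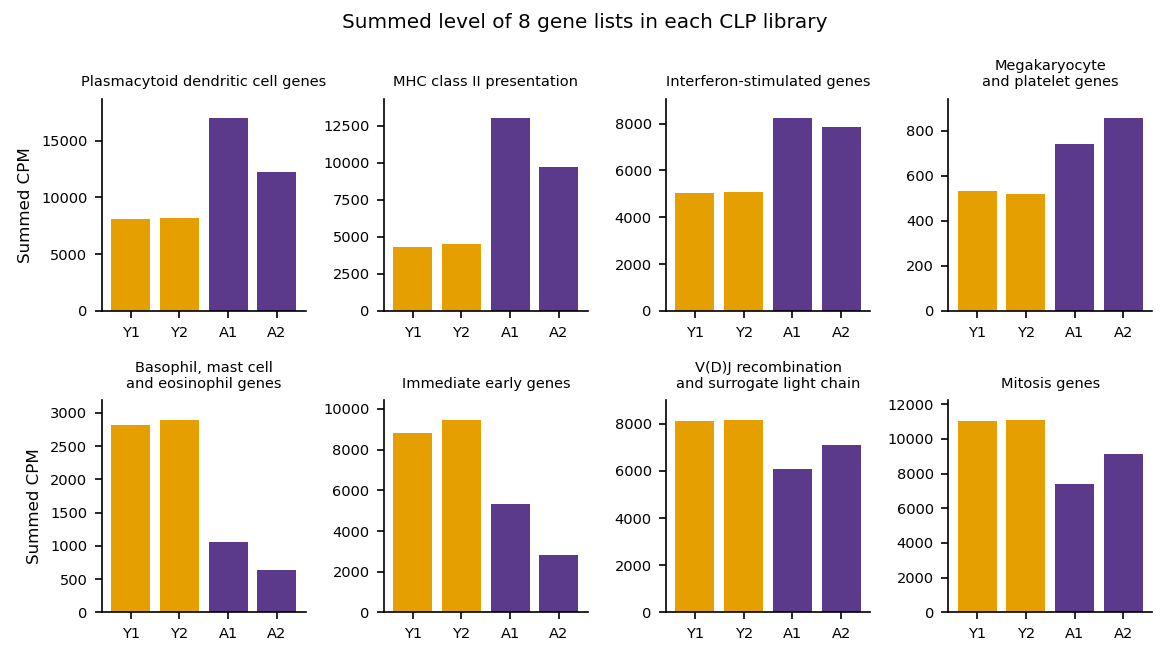
Summed CPM of the members of 8 gene lists (y axes, starting at 0) in young replicates 1 and 2 (Y1, Y2) and aged replicates 1 and 2 (A1, A2), 1 bar per library. The megakaryocyte sum is 533 and 521 in the young and 743 and 856 in the aged libraries, and a sum is led by its most abundant members.

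Plasmacytoid dendritic cell genes were also higher in aged CLPs, and at far higher levels. Of 25 members 17 rose and 0 (0 unadjusted, 0 in DESeq2) fell (median 1.04). Siglech, the lectin that marks this cell type in mice, stood at 1071 and 1056 CPM in the young and 3155 and 2089 CPM in the aged libraries. Siglech changed by 1.30 ± 0.25 (SE) on the log2 scale, adjusted p 0.00164, and its level was no more than 0.982 CPM in any other young fraction. Klk1 (chr7:44225360-44229618), a kallikrein gene expressed by these cells, was at 51.2 and 56.5 CPM in the young and 504 and 310.4 CPM in the aged libraries. Klk1 changed by 2.92 ± 0.26 (SE) on the log2 scale, adjusted p 7.08e-05. Irf7 (chr7:141262706-141266481), the master regulator of type I interferon genes, was at 87.6 and 88.4 CPM in the young and 339.8 and 213 CPM in the aged libraries. Irf7 changed by 1.65 ± 0.16 (SE) on the log2 scale, adjusted p 2.10e-07. In all of these, aged replicate 1 lay highest, aged replicate 2 next, and the young pair lay together below both. Other members that rose were Lair1, an inhibitory collagen receptor (152 and 148 to 518 and 338 CPM), Lag3, an inhibitory receptor for MHC class II (6.16 and 6.97 to 26.5 and 16.3 CPM), Ccr9, a chemokine receptor of thymus and gut homing (242 and 243 to 755 and 505 CPM), and the lineage's transcription factors Tcf4 (471 and 452 to 871 and 670.4 CPM) and Irf8 (3168 and 3267 to 5307 and 4119.7 CPM). Spib (469.8 and 450.2 to 937 and 678 CPM, adjusted p 0.0171), Tlr7 (62.1 and 59.4 to 165 and 102 CPM, adjusted p 0.0282) and Cd209d (26.05 and 26.5 to 129 and 62.3 CPM, adjusted p 0.0117) did not pass, though Cd209d did without aged replicate 2 (adjusted p 0.00307) and with no filter (0.00625). All 25 members were higher in aged replicate 1 than in aged replicate 2, with a median log2 ratio of 0.58, against 7513 of the 14154 genes tested. The members' median log2 difference from the young mean was 1.24 in aged replicate 1 and 0.63 in aged replicate 2. The summed level was 8096 and 8169.6 CPM in the young and 16981 and 12245 CPM in the aged libraries. Without aged replicate 1 the members higher were 7, without aged replicate 2 17, and without either young library 9 or 10. With the 4 CLP libraries alone 1 member was called. The calls lost with a library left out included Siglech (adjusted p 0.0214 to 0.0348 without young replicate 1, young replicate 2 or aged replicate 1), Lag3 (0.0467 to 0.113 without young replicate 1, young replicate 2 or aged replicate 1), Ccr9 (0.0112 without aged replicate 1), Irf8 (0.0172 to 0.0843 without young replicate 1, young replicate 2 or aged replicate 1) and Klk1b27 (0.0352 to 0.0719 without young replicate 1, young replicate 2 or aged replicate 1). Siglech was not called by DESeq2 (adjusted p 0.538). Klk1 and its paralogue Klk1b27 (6.74 and 7.37 to 51.5 and 31.7 CPM), whose reads may be shared with other kallikreins, were not called by it either (adjusted p 0.877 and 0.896).

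The MHC class II genes moved with them. Of 20 members 8 rose and 0 (2 unadjusted, 1 in DESeq2) fell (median 0.58). H2-Ab1, a beta chain of the class II molecule, stood at 621 and 646 CPM in the young and 2293 and 1721 CPM in the aged libraries. H2-Ab1 changed by 1.66 ± 0.17 (SE) on the log2 scale, adjusted p 8.38e-07. Its partner H2-Aa went from 346 and 364 to 1408 and 1048 CPM (1.79, adjusted p 2.78e-04), H2-Eb1 from 248 and 254 to 780.4 and 643 CPM (1.51, adjusted p 0.00166), and the invariant chain Cd74 from 2089 and 2173 to 6689 and 4725 CPM (1.42, adjusted p 4.89e-04). Both aged libraries were above both young ones for each of these genes, replicate 1 higher than replicate 2. Ctss, the protease that trims the invariant chain, rose from 285 and 287 to 685 and 469 CPM. The class II transactivator Ciita (34.3 and 28.9 to 79.9 and 62.3 CPM, adjusted p 0.0567) and the costimulatory gene Cd86 (7.23 and 4.86 to 5.10 and 7.65 CPM, adjusted p 0.952) did not pass. The summed level was 4339.9 and 4504 CPM in the young and 13011 and 9697 CPM in the aged libraries, and the members higher numbered 4 to 8 with one library left out, the lowest without aged replicate 1, and 5 with the 4 CLP libraries alone. Left-out libraries ended the calls of H2-Eb1 (adjusted p 0.0236 to 0.0290 without young replicate 1, young replicate 2 or aged replicate 1), Cd74 (0.0116 to 0.0145 without young replicate 1 or aged replicate 1) and Ctss (0.0213 without aged replicate 1). H2-Eb1 was not called by DESeq2 (adjusted p 0.0374). The part of plasmacytoid dendritic cell RNA in these values was not tested.

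Interferon-stimulated genes were higher as a group. Of 63 members 28 rose and 1 fell (median 0.54). Iigp1, a GTPase that attacks the vacuoles of intracellular pathogens, stood at 9.37 and 10.1 CPM in the young and 42.8 and 83.1 CPM in the aged libraries. Iigp1 changed by 2.69 ± 0.31 (SE) on the log2 scale, adjusted p 3.72e-06. Tgtp1, a related GTPase with a near-identical neighbour, stood at 42.4 and 39.2 CPM in the young and 106 and 149 CPM in the aged libraries. Tgtp1 changed by 1.65 ± 0.12 (SE) on the log2 scale, adjusted p 2.51e-09. Igtp was at 38.1 and 37.8 CPM in the young and 74.8 and 122 CPM in the aged libraries. Igtp changed by 1.38 ± 0.15 (SE) on the log2 scale, adjusted p 1.81e-06. These 3 GTPase genes were higher in aged replicate 2 than in aged replicate 1, the opposite order to Irf7 (339.8 and 213 CPM in aged replicates 1 and 2) and Bst2 (945 and 626 CPM). Irf1 (162 and 159 to 319.7 and 305 CPM), Irf9 (108 and 97.6 to 171 and 158 CPM) and the peptide transporter Tap1 (407 and 410.2 to 512 and 609 CPM) rose also. Among antiviral genes, Ifit1, Mx1 and Oas2 were low, unlike Bst2: Ifit1 at 2.71 and 3.65 CPM in the young and 4.25 and 4.24 CPM in the aged libraries (adjusted p 0.353), Mx1 at 5.18 and 4.54 CPM in the young and 11.5 and 15.01 CPM in the aged libraries (adjusted p 0.0888) and Oas2 at no more than 1.54 CPM in any library. Summed over the list the level was 5034 and 5079.7 CPM in the young and 8228 and 7832 CPM in the aged libraries. Of the 63 members 34 were higher in aged replicate 1 than in aged replicate 2. The 1 member that fell was Ddx58 (29.4 and 29.01 to 18.3 and 20.2 CPM), the RNA sensor RIG-I. The calls of Tap1 (adjusted p 0.0160 to 0.0365 without young replicate 1, young replicate 2 or aged replicate 2) and Ddx58 (0.0109 without aged replicate 1) were lost with a library left out. Leaving out one library gave 19 to 25 members higher, the lowest without young replicate 2, and the 4 CLP libraries alone gave 5. Irf7, Bst2 and the sum of plasmacytoid dendritic cell genes moved with the list, and their part in it was not tested.

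The promoters of interferon-stimulated genes are shown because members of this list moved together. The letters GAAANNGAA, the core of the interferon-stimulated response element, were searched on both strands of the 300 bases from 250 before to 50 after each annotated start (RefSeq, GRCm38.p6). They were present in 25 of 45 members with a window (55.6%), and in 12 of 24 of those called, against 8.56% of all 32851 windows and 8.98% of the genes tested. The windows of 2 called members that hold the letters are printed 5′ to 3′ on the gene's strand with the matches in capitals. They are Tgtp1 from chr11:48992197-48992496, minus strand and Igtp from chr11:58199306-58199605, plus strand. These 2 need not be the members with the largest changes that hold the letters. Iigp1, which changed more, was not printed, and whether its window holds them is not given. A match is a description of the sequence and shows no binding.
Tgtp1: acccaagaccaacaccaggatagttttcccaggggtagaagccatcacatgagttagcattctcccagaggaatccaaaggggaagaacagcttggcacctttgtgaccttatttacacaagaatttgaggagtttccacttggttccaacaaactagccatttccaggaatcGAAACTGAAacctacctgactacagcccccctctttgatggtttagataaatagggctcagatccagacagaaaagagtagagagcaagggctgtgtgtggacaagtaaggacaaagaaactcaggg
Igtp: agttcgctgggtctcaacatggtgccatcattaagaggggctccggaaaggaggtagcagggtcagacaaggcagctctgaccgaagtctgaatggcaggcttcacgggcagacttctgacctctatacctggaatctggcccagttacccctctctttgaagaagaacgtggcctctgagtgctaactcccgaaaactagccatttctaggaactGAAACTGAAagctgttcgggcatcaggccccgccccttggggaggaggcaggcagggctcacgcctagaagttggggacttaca

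Receptors of homing and adhesion moved in both directions. Of 22 members 9 rose and 2 fell (median 0.35). Cxcr3, a receptor for interferon-induced chemokines, stood at 39.3 and 40.9997 CPM in the young and 164 and 95.7 CPM in the aged libraries. Cxcr3 changed by 1.69 ± 0.30 (SE) on the log2 scale, adjusted p 4.06e-04. Ccr2, the monocyte chemokine receptor, was at 38.9 and 40.6 CPM in the young and 151 and 81.4 CPM in the aged libraries. Ccr2 changed by 1.55 ± 0.26 (SE) on the log2 scale, adjusted p 2.08e-04. The thymus homing receptors Ccr9 and Itgb7 (281 and 293 to 582 and 449 CPM) rose as well. S1pr1, the receptor that draws lymphocytes out of tissue, stood at 48.1 and 40.9997 CPM in the young and 9.27 and 10.3 CPM in the aged libraries. S1pr1 changed by -2.19 ± 0.14 (SE) on the log2 scale, adjusted p 3.31e-10. Vcam1 (chr3:116109949-116129688), an adhesion ligand of marrow macrophages and stroma, stood at 52.5 and 55.8 CPM in the young and 1.54 and 1.34 CPM in the aged libraries. Vcam1 changed by -5.23 ± 0.27 (SE) on the log2 scale, adjusted p 9.88e-12. Both fell in both aged libraries, which lay close together. Cxcr4 (33.03 and 30.2 to 26.6 and 35.6 CPM) and Ccr7 (64.3 and 72.7 to 39.4 and 51.1 CPM) did not pass (adjusted p 0.987 and 0.234). Members higher numbered 3 to 10 with one library left out, the lowest without aged replicate 1, and 0 with the 4 CLP libraries alone (11 at an unadjusted p under 0.05). Among the named receptors the call was lost with a library left out for Cxcr3 (adjusted p 0.0126 to 0.0476 without young replicate 1 or aged replicate 1), Ccr2 (0.0146 without aged replicate 1), Ccr9 (0.0112 without aged replicate 1) and Itgb7 (0.0108 to 0.0191 without young replicate 1 or aged replicate 1).

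Genes of basophils, mast cells and eosinophils fell, in part from high levels. Of 25 members 14 fell and 2 rose (median -1.89, or -1.75 with bounds), and 7 had no reads in either aged library. Prss34 (chr17:25298394-25300165), the basophil protease mMCP-11, had 15610 and 16148 counts in the young libraries and none in the aged, at least 5700.1-fold lower (adjusted p 1.67e-10). Mcpt8 (chr14:56082166-56085273), the other defining protease of mouse basophils, stood at 279 and 292 CPM in the young and 0.772 and 2.30 CPM in the aged libraries. Mcpt8 changed by -7.51 ± 0.29 (SE) on the log2 scale, adjusted p 3.12e-12. Cpa3, the mast cell carboxypeptidase, went from 98.5 and 106 to 6.87 and 8.99 CPM, so that it fell without being lost. The IgE receptor chains Fcer1a (53.6 and 52.02 to 0.618 and 0 CPM; -7.40, adjusted p 5.81e-08) and Ms4a2 (23.7 and 27.1 to 0 and 0.743 CPM; -6.04, adjusted p 3.72e-06) and the transcription factor Gata2 (48.9 and 56.7 to 0.695 and 4.31 CPM; -4.38, adjusted p 1.48e-09) fell by more than 4 on the log2 scale. Cyp11a1, a steroid-making enzyme, and Cd200r3, a basophil surface receptor, had no reads in aged libraries and were at least 61.4-fold and 47.02-fold lower, though DESeq2 did not call Cd200r3 (adjusted p 0.104). The eosinophil granule genes Prg2 (382 and 384 to 216 and 69.9 CPM; -1.42, adjusted p 0.00260) and Epx (192 and 176 to 96.2 and 33.4 CPM; -1.51, adjusted p 0.00394) fell less, and far less in aged replicate 1 than in aged replicate 2. Alox15, a lipoxygenase of eosinophils and macrophages that was not on the list, had 261 and 349 counts in the young and 0 and 3 in the aged libraries. The 2 members that rose were the receptor chains Csf2rb (149.9 and 159 to 340.5 and 246 CPM) and Csf2rb2 (95.7 and 121 to 339 and 216 CPM), shared by IL-3, IL-5 and GM-CSF and not confined to these cells, and reads of this close pair may be exchanged. The calls of Prg2 (adjusted p 0.0145 to 0.0151 without young replicate 1 or young replicate 2) and Epx (0.0170 to 0.0264 without young replicate 1 or young replicate 2) were lost with a young library left out. The list's sum was 2814 and 2898 CPM in the young and 1065 and 633 CPM in the aged libraries. The members lower numbered 11 to 15 with one library left out and 9 with the 4 CLP libraries alone.

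Granulocyte and monocyte genes fell likewise, with 18 of 30 members lower and 3 higher (median -1.48). Elane, neutrophil elastase, stood at 153 and 166 CPM in the young and 1.47 and 4.61 CPM in the aged libraries. Elane changed by -5.70 ± 0.51 (SE) on the log2 scale, adjusted p 8.37e-08. Mpo, myeloperoxidase, stood at 1167 and 1193 CPM in the young and 194 and 250.04 CPM in the aged libraries. Mpo changed by -2.41 ± 0.40 (SE) on the log2 scale, adjusted p 2.06e-04. Ms4a3, a gene of granulocyte and monocyte progenitors, was at 27.9 and 24.1 CPM in the young and 0.927 and 0 CPM in the aged libraries. Ms4a3 changed by -5.81 ± 0.51 (SE) on the log2 scale, adjusted p 6.26e-08. In each of these both aged libraries lay far below both young ones. S100a8 and S100a9, the calprotectin subunits, went from 82.3 and 80.3 to 22.5 and 11.8 CPM and from 98.1 and 99.1 to 35.1 and 15.98 CPM, higher in aged replicate 1 than in aged replicate 2. Fcnb (5.18 and 5.35 to 0 and 0.520 CPM), a ficolin of neutrophils, Fcgr3 (23.6 and 23.1 to 3.94 and 1.93 CPM), an IgG receptor, and Lyz2 (181 and 184 to 78.8 and 80.8 CPM), lysozyme, fell also. The 3 members that rose were Ccr2, Ly6c2 and Cybb (328 and 322 to 898 and 604 CPM), a subunit of the phagocyte oxidase, of which Ly6c2 is on the plasmacytoid dendritic cell list too, while the M-CSF receptor Csf1r (54.1 and 59.6 to 47.3 and 71.9 CPM, adjusted p 0.869) did not pass. The call of Cybb (adjusted p 0.0136 to 0.0338 without young replicate 1, young replicate 2 or aged replicate 1) was lost with a library left out and in DESeq2 (adjusted p 0.0119). The sum was 3993 and 4059.6 CPM in the young and 3237 and 2779 CPM in the aged libraries, and 17 to 18 members were lower with one library left out (7 with the 4 CLP libraries alone).

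Genes of marrow macrophages that take up dying cells and recycle iron fell, with 13 of 22 members lower and 3 higher (median -3.45, or -3.27 with bounds). Fcna, ficolin A of macrophages, had 276 and 306 counts in the young libraries and none in the aged, at least 104-fold lower (adjusted p 3.49e-10). Cd5l, a secreted macrophage protein, and Mertk, a receptor for dying cells, had none either, at least 32.7-fold and 11.7-fold lower. The 3 chains of complement C1q, C1qa (16.8 and 20.5 to 0.463 and 0 CPM), C1qb (26.4 and 32.2 to 0.540 and 0.892 CPM) and C1qc (25.8 and 28.9 to 0.695 and 0 CPM), fell together. Hmox1, which breaks down haem, went from 30.8 and 31.9 to 4.86 and 2.97 CPM (-3.00, adjusted p 2.73e-07), the iron exporter Slc40a1 from 47.1 and 51.9 to 2.24 and 1.26 CPM (-4.82, adjusted p 3.72e-12), and Axl, a receptor related to Mertk, from 32.5 and 34.4 to 2.47 and 1.86 CPM (-3.95, adjusted p 7.36e-12). The members that rose were the lysosomal protease Ctsb (1884 and 1892 to 3962 and 2738 CPM), the endosomal protein Cd68 (103 and 111 to 361 and 223 CPM) and the protease inhibitor Slpi (54.6 and 50.2 to 114 and 97.9 CPM), none of them confined to macrophages, and with Ctsb the most abundant the list's sum moved the other way, from 3124 and 3162 to 5231 and 3826 CPM. The call of Mertk (adjusted p 0.0214 to 0.0667 without any 1 library) was lost with a library left out. Members lower numbered 11 to 12 with one library left out and 10 with the 4 CLP libraries alone.

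Among erythroid genes 5 of 23 members fell and 0 (0 unadjusted, 0 in DESeq2) rose (median -0.83). The members divided in how the aged pair stood: 12 of 23 were higher in aged replicate 1, with a median log2 ratio of 0.0190, but for Alas2 and the beta globins the pair was far apart. Alas2, the first enzyme of erythroid haem synthesis, stood at 54.9 and 52.7 CPM in the young and 20.6 and 2.01 CPM in the aged libraries. Alas2 changed by -2.26 ± 0.47 (SE) on the log2 scale, adjusted p 0.00165. The beta globin genes Hbb-b1 (611 and 635 to 227 and 35.7 CPM) and Hbb-b2 (418 and 444 to 153 and 25.3 CPM) followed the same order, and reads of such near-identical globin copies cannot be assigned with confidence. The sum of both alpha globin genes was 1301 and 1348 CPM in the young and 492 and 70.4 CPM in the aged libraries. By itself Hba-a1, which did not pass, was higher in aged replicate 2 (315 and 340.2 to 51.5 and 69.3 CPM), as were Klf1 and Car2. The regulators Gata1 and Klf1 were at no more than 5.75 CPM in any library and did not pass (adjusted p 0.0353 and 0.0579). Car2, carbonic anhydrase, fell from 122 and 131 to 77.6 and 95.3 CPM, and biliverdin reductase B (Blvrb) from 34.7 and 32.2 to 24.2 and 23.2 CPM. Calls lost with a library left out were those of Alas2 (adjusted p 0.0111 without young replicate 1), Car2 (0.0193 to 0.0476 without young replicate 2 or aged replicate 1) and Blvrb (0.0208 to 0.0625 without any 1 library). Without aged replicate 2, Gata1 and Klf1 were called lower (adjusted p 0.00533 and 4.88e-05), as they were by DESeq2 (0.00336 and 0.00195). With one library left out 3 to 7 members were lower, the most without aged replicate 2.

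B lineage genes were lower in aged CLPs. Of 30 members 10 fell and 0 (1 unadjusted, 1 in DESeq2) rose (median -0.93). Cd79a, a signalling chain of the B cell receptor, stood at 969 and 1006 CPM in the young and 413 and 415 CPM in the aged libraries. Cd79a changed by -1.25 ± 0.18 (SE) on the log2 scale, adjusted p 9.40e-05. Its partner Cd79b went from 382 and 395 to 183 and 175 CPM (-1.12, adjusted p 2.38e-05). Ebf1, the transcription factor that specifies the lineage, stood at 122 and 120.4 CPM in the young and 61.2 and 66.7 CPM in the aged libraries. Ebf1 changed by -0.92 ± 0.21 (SE) on the log2 scale, adjusted p 0.00809. For these genes the replicates of each age lay close together and the aged level was far below the young. Genes of later B cells fell by more: Ms4a1, which encodes CD20, from 104 and 101 to 6.80 and 10.8 CPM (-3.53, adjusted p 0.00151), the IgM receptor gene Fcmr from 70.01 and 83.1 to 8.73 and 13.7 CPM (-2.77, adjusted p 0.00875), Cd83 from 17.4 and 16.8 to 3.32 and 5.28 CPM (-1.99, adjusted p 0.00897) and the adaptor Bank1 from 37.96 and 32.7 to 10.6 and 10.997 CPM (-1.71, adjusted p 0.00623). DESeq2 did not call Ms4a1 (adjusted p 0.842) or Fcmr (adjusted p 0.885). Pax5 was low (7.23 and 8.67 to 3.24 and 3.57 CPM, adjusted p 0.214), and the adaptor Blnk stood at 459.9 and 436 CPM in the young and 465 and 405 CPM in the aged libraries (adjusted p 0.938). The sum was 5318 and 5384 CPM in the young and 3950.2 and 3661 CPM in the aged libraries. The calls lost with a library left out were those of Ebf1 (adjusted p 0.0310 to 0.0913 without any 1 library), Ms4a1 (0.0150 to 0.0297 without young replicate 1, young replicate 2 or aged replicate 1), Fcmr (0.0302 to 0.102 without any 1 library), Cd83 (0.0203 to 0.126 without any 1 library) and Bank1 (0.0269 to 0.0675 without any 1 library). With any one CLP library left out 3 to 4 members were lower, against 10 with the 4 CLP libraries alone.

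In the group of V(D)J recombination and the surrogate light chain 7 of 19 members fell and 0 (3 unadjusted, 1 in DESeq2) rose (median -0.40). Igll1, the lambda 5 chain that stands in for a light chain in the pre-B cell receptor, stood at 514 and 519.5 CPM in the young and 286 and 290.01 CPM in the aged libraries. Igll1 changed by -0.84 ± 0.10 (SE) on the log2 scale, adjusted p 4.51e-05. Its partner Vpreb1 went from 287 and 281 to 156 and 148 CPM (-0.90, adjusted p 3.67e-04), Vpreb3 from 199 and 201 to 100.3 and 85.4 CPM (-1.11, adjusted p 0.00278), and the ligase Lig4 that seals coding ends from 11.6 and 11.2 to 4.94 and 5.94 CPM (-1.06, adjusted p 0.00834). The enzymes that start recombination did not pass: Rag1 stood at 32.4 and 32.1 CPM in the young and 19.9 and 19.9 CPM in the aged libraries (adjusted p 0.194), Rag2 at 60.6 and 59.96 CPM in the young and 59.1 and 72.002 CPM in the aged libraries (adjusted p 0.883), and Dntt had an adjusted p of 0.0644 (0.00865 in DESeq2, which called it higher). The calls of Vpreb3 (adjusted p 0.0251 to 0.0459 without any 1 library) and Lig4 (0.0186 to 0.104 without any 1 library) were lost with a library left out. The list's members lower numbered 3 to 5 with one library left out, the lowest without aged replicate 1 or either young library, and 4 with the 4 CLP libraries alone.

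Among lymphoid transcription factors 3 of 38 rose and 6 fell (median -0.17). Bach2, a repressor that favours the lymphoid fate, went from 76.3 and 87.996 to 36.3 and 44.5 CPM (-1.02, adjusted p 8.08e-05), the B cell coactivator Pou2af1 from 276 and 260.1 to 136 and 149.9 CPM (-0.91, adjusted p 8.19e-04), Foxo1 from 174 and 171 to 113 and 107 CPM (-0.65, adjusted p 4.48e-04) and the Notch target Hes1 from 19.7 and 21.2 to 12.4 and 10.6 CPM (-0.84, adjusted p 1.80e-04). E2A (Tcf3) went from 873 and 857 to 622 and 660.4 CPM and was the remaining fall beside Ebf1, and the rises were of Tcf4, Irf8 and Hhex (199 and 200.3 to 277 and 247 CPM), a homeobox factor. Ikaros (Ikzf1, 243 and 253 to 249 and 241 CPM), Notch1 (224 and 222 to 293 and 288 CPM), Gata3 (8.13 and 8.43 to 9.42 and 11.7 CPM) and Tcf7 (31.3 and 36.5 to 22.3 and 30.8 CPM) did not pass, with adjusted p from 0.210 to 0.974. In IL-7 receptor signalling 4 of 22 members fell and 0 (4 unadjusted, 2 in DESeq2) rose. They were the feedback inhibitors Socs2 (53.5 and 58.1 to 27.1 and 34.1 CPM; -0.87, adjusted p 5.87e-04) and Socs3 (61.1 and 62.4 to 28.4 and 14.9 CPM; -1.52, adjusted p 2.75e-04), Foxo1, and the survival gene Mcl1 (363 and 345 to 278 and 254 CPM; -0.41, adjusted p 0.00189). Of T, natural killer and innate lymphoid genes 2 of 33 rose and 3 fell (median -0.22). Cd7, an early T and dendritic lineage antigen, stood at 219.97 and 234 CPM in the young and 546 and 353 CPM in the aged libraries (log2 fold change 0.98 ± 0.22 (SE), adjusted p 0.00289), Klrb1b, a receptor of natural killer cells, had no reads in the young libraries and 23 and 48 counts in the aged, and Gzmb and Il1rl1 fell from below 4 CPM. The third fall was of Nkg7 (73.1 and 73.2 to 48.96 and 54.5 CPM), a gene of cytotoxic granules. With one library left out the members higher and lower were 1 to 4 and 3 to 5 for the transcription factors, 0 to 1 and 2 to 3 for IL-7 receptor signalling, and 0 to 1 and 0 to 3 for T and natural killer genes. Leaving out a library ended the calls of Ebf1 (adjusted p 0.0310 to 0.0913 without any 1 library), Irf8 (0.0172 to 0.0843 without young replicate 1, young replicate 2 or aged replicate 1), Pou2af1 (0.0125 to 0.0248 without young replicate 1, young replicate 2 or aged replicate 1), Tcf3 (0.0251 to 0.0671 without young replicate 1, young replicate 2 or aged replicate 1), Hhex (0.0123 without aged replicate 1), Socs2 (0.0116 to 0.0240 without young replicate 2 or aged replicate 1), Mcl1 (0.0102 to 0.0262 without young replicate 1, young replicate 2 or aged replicate 2), Cd7 (0.0298 to 0.137 without young replicate 1, young replicate 2 or aged replicate 1), Klrb1b (0.0138 to 0.0372 without young replicate 1, young replicate 2 or aged replicate 2), Gzmb (0.0165 to 0.0577 without young replicate 1, young replicate 2 or aged replicate 1), Il1rl1 (0.0158 to 0.0277 without young replicate 1 or aged replicate 1) and Nkg7 (0.0210 to 0.0587 without young replicate 1, young replicate 2 or aged replicate 1).

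Of the genes that define or attend the sort, 3 of 16 rose and 1 fell. Ly6a, the gene of the sort antigen Sca-1, stood at 34.4 and 35.9 CPM in the young and 221 and 207 CPM in the aged libraries. Ly6a changed by 2.60 ± 0.51 (SE) on the log2 scale, adjusted p 9.82e-04, although the gate took cells with low Sca-1 at both ages. DESeq2 did not call it (adjusted p 0.0242). Cd24a, a surface antigen of B cell precursors, went from 486 and 485 to 268 and 314 CPM (-0.74, adjusted p 6.85e-08) and the stem and progenitor antigen Cd34 from 272 and 279 to 313 and 437 CPM (0.44, adjusted p 0.00698). Among stem and multipotent progenitor genes 8 of 34 rose and 3 fell (median 0.02). Among the rises were those of Tie1 (0 and 0 to 0.772 and 2.15 CPM), an endothelial and stem cell receptor, of Aldh1a1 (0 and 0 to 0.154 and 1.41 CPM), an enzyme that makes retinoic acid, and of Lmo2 (121 and 121 to 200.3 and 179.7 CPM), a stem and progenitor regulator, while Gata2, Egr1 and the tetraspanin Cd63 (58.2 and 60.7 to 6.02 and 5.65 CPM) fell. Among the sort and stem cell genes the call was lost with a library left out for Ly6a (adjusted p 0.0189 to 0.0220 without young replicate 1 or young replicate 2), Cd34 (0.0427 to 0.250 without young replicate 1, young replicate 2 or aged replicate 2), Mecom (0.0610 to 0.108 without young replicate 1 or aged replicate 2), Tie1 (0.0112 to 0.0125 without young replicate 1, young replicate 2 or aged replicate 2) and Aldh1a1 (0.0603 to 0.192 without young replicate 1, young replicate 2 or aged replicate 2). The list's sum was 864 and 865 CPM in the young and 623 and 700.1 CPM in the aged libraries, below the young level in both aged libraries. Members higher numbered 3 to 9 with one library left out, the lowest without young replicate 1 or without aged replicate 2. Of plasma cell genes 3 of 18 rose and 0 (3 unadjusted, 0 in DESeq2) fell. The rises were of Xbp1 (228 and 223 to 494 and 409 CPM), Ell2 (12.9 and 12.3 to 29.5 and 21.9 CPM) and Txndc5 (317 and 299 to 555 and 480.3 CPM), all of them genes of secretory capacity. The defining plasma cell genes Jchain (83.98 and 92.05 to 53.8 and 92.2 CPM) and Sdc1 (204 and 227 to 173 and 173 CPM) did not pass (adjusted p 0.582 and 0.0797).

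Genes of cell division were lower in aged CLPs by small amounts that many members shared. Of 52 DNA replication genes 19 fell and 0 (0 unadjusted, 0 in DESeq2) rose (median -0.33), and of 57 mitosis genes 23 fell and 0 (0 unadjusted, 0 in DESeq2) rose (median -0.40). Rrm2, a subunit of the reductase that makes deoxynucleotides, stood at 636 and 619 CPM in the young and 399 and 457 CPM in the aged libraries. Rrm2 changed by -0.55 ± 0.08 (SE) on the log2 scale, adjusted p 2.46e-05. Clspn, a replication checkpoint adaptor, was at 56.9 and 41.97 CPM in the young and 23.7 and 34.6 CPM in the aged libraries. Clspn changed by -0.76 ± 0.17 (SE) on the log2 scale, adjusted p 0.00296. Birc5, survivin of the chromosomal passenger complex, stood at 232 and 232 CPM in the young and 134 and 168 CPM in the aged libraries. Birc5 changed by -0.62 ± 0.09 (SE) on the log2 scale, adjusted p 3.75e-05. Cdc25b, a phosphatase that starts mitosis, was at 142 and 129.8 CPM in the young and 72.5 and 86.1 CPM in the aged libraries. Cdc25b changed by -0.78 ± 0.14 (SE) on the log2 scale, adjusted p 3.49e-04. In each, both aged libraries were below both young ones, and aged replicate 1 was the lower. Dut (224 and 227 to 136 and 169 CPM), Rpa3 (49.2 and 49.7 to 31.1 and 37.3 CPM), Cks1b (216 and 222 to 121 and 159.8 CPM) and Ube2c (301 and 312 to 179 and 226 CPM) fell in the same order. The proliferation antigen Mki67 (316 and 331 to 234 and 292 CPM, adjusted p 0.338) and topoisomerase Top2a (763 and 761 to 496 and 610.05 CPM, adjusted p 0.0126) did not pass. Aged replicate 1 lay above aged replicate 2 at only 2 of the 52 replication and 1 of the 57 mitosis genes, and the summed mitosis level was 11046 and 11103 CPM in the young and 7404 and 9108 CPM in the aged libraries. The counts of called members turned on that library: without aged replicate 1, 3 replication and 4 mitosis genes were lower, and without aged replicate 2, 28 and 37. Without young replicate 1 they were 8 and 13, without young replicate 2 9 and 14, and with the 4 CLP libraries alone edgeR called 0 and 0 (33 and 48 at an unadjusted p under 0.05), while DESeq2 on all libraries gave 26 and 36. Among the genes named the calls of Clspn (adjusted p 0.0874 to 0.101 without young replicate 1 or aged replicate 1), Rpa3 (0.0114 to 0.0438 without young replicate 2 or aged replicate 1) and Cdc25b (0.0169 without aged replicate 1) were lost with a library left out, while Top2a was called without aged replicate 2 and in DESeq2 (adjusted p 0.00736 and 0.00132).

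Of the regulators of G1, 1 of 38 rose and 5 fell. Ccnd1, cyclin D1, stood at 100 and 98.7 CPM in the young and 274 and 262 CPM in the aged libraries. Ccnd1 changed by 1.43 ± 0.19 (SE) on the log2 scale, adjusted p 2.04e-05. E2f2, an activator of S phase genes, went from 185 and 190.4 to 95.6 and 91.2 CPM (-1.01, adjusted p 2.47e-05), its dimer partner Tfdp2 from 71.8 and 80.8 to 46.9 and 53.1 CPM (-0.61, adjusted p 1.65e-04) and E2f8 from 101 and 108 to 64.9 and 77.9 CPM (-0.55, adjusted p 0.00512). The other falls were of cyclin D3 (Ccnd3, 1798 and 1856 to 1218 and 1299 CPM) and Tfdp1 (529 and 513 to 417 and 473 CPM). The inhibitor genes Cdkn1a (76.7 and 75.5 to 73.5 and 81.5 CPM) and Cdkn2c (143 and 142 to 125 and 132 CPM) did not pass (adjusted p 0.944 and 0.314). Calls lost with a library left out were those of Tfdp2 (adjusted p 0.0140 without aged replicate 1), E2f8 (0.0209 to 0.117 without young replicate 1, young replicate 2 or aged replicate 1) and Tfdp1 (0.0450 to 0.269 without young replicate 1, young replicate 2 or aged replicate 1). The list's members lower numbered 2 to 9 with one library left out, the most without aged replicate 2 and the fewest without aged replicate 1, and 11 in DESeq2. Promoters of cell division genes are shown because E2f2 and its partner fell beside them. TTTCCCGC or TTTGGCGC, the letters of the E2F site, were searched on both strands of the same windows. They were present in 13 of 43 replication genes with a window (30.2%) and 4 of 48 mitosis genes (8.33%), against 1.56% of all windows and 3.31% of the genes tested. Among called members with a window they were in 3 of 15 and 1 of 18. The windows of Mcm5, a subunit of the replicative helicase (chr8:75109259-75109558, plus strand; 684 and 702 to 491 and 580.2 CPM), and of Ncapg, a condensin subunit (chr5:45669675-45669974, plus strand; 122 and 117 to 81.6 and 100.2 CPM), hold the letters, in capitals. The calls of Mcm5 (adjusted p 0.0126 without aged replicate 1) and Ncapg (0.0395 to 0.222 without young replicate 1, young replicate 2 or aged replicate 1) were lost with a library left out.
Mcm5: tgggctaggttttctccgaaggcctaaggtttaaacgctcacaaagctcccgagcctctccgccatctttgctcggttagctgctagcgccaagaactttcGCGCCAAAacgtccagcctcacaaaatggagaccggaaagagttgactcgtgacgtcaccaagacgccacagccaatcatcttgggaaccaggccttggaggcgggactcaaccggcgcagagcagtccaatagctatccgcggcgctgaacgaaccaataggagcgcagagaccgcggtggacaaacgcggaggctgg
Ncapg: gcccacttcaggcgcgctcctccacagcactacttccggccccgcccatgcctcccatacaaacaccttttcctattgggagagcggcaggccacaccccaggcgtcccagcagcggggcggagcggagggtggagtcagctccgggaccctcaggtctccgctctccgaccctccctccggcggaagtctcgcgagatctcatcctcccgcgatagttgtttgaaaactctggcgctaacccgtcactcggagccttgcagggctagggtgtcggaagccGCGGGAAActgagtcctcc

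Immediate early genes, which cells switch on within minutes of a stimulus without new protein, were lower in aged CLPs. Of 30 members 18 fell and 0 (0 unadjusted, 0 in DESeq2) rose (median -1.41). Fos, the AP-1 subunit, stood at 2344 and 2342 CPM in the young and 783 and 315 CPM in the aged libraries. Fos changed by -2.09 ± 0.23 (SE) on the log2 scale, adjusted p 3.02e-06. Egr1, a zinc finger activator, stood at 245 and 222 CPM in the young and 29.5 and 31.1 CPM in the aged libraries. Egr1 changed by -2.95 ± 0.15 (SE) on the log2 scale, adjusted p 9.88e-12. Dusp1, a phosphatase that shuts off MAP kinases, was at 339.7 and 350.4 CPM in the young and 86.2 and 39.2 CPM in the aged libraries. Dusp1 changed by -2.46 ± 0.25 (SE) on the log2 scale, adjusted p 4.99e-07. Both aged libraries lay below both young ones for all of these, with Egr1 alike in the aged pair and Fos and Dusp1 lower in replicate 2. Fosb (57.03 and 56.2 to 14.8 and 7.21 CPM), Junb (534 and 548 to 182 and 102 CPM), Nr4a1 (45.2 and 41.97 to 10.2 and 5.05 CPM), Klf4 (23.1 and 23.8 to 5.79 and 1.78 CPM) and Atf3 (4.36 and 3.97 to 0.386 and 0.669 CPM) fell as well. Jun showed aged replicate 1 at the young level and aged replicate 2 below it (1504 and 1498 CPM in the young and 1461 and 737 CPM in the aged libraries, adjusted p 0.101). The sum was 8819.9 and 9473 CPM in the young and 5319.7 and 2807 CPM in the aged libraries, and 23 of the 30 members were higher in aged replicate 1. Members lower numbered 15 to 16 with one library left out and 3 with the 4 CLP libraries alone. Among the named genes the call of Atf3 (adjusted p 0.0168 without aged replicate 1) was lost, while Jun was called without that library (adjusted p 6.55e-05). The CArG box, the site of serum response factor, was found on either strand in 3 of 24 members with a window (12.5%), against 1.63% of all windows and 1.64% of the genes tested, and in 2 of 15 of those called. These are Zfp36, which destabilises cytokine mRNA (chr7:28379179-28379478, minus strand; 1201 and 1235 to 624 and 250.1 CPM), and Dusp5, a phosphatase of ERK (chr19:53528895-53529194, plus strand; 65.9 and 63.2 to 42.5 and 30.3 CPM), printed because they are the called members that hold it, with the box in capitals.
Zfp36: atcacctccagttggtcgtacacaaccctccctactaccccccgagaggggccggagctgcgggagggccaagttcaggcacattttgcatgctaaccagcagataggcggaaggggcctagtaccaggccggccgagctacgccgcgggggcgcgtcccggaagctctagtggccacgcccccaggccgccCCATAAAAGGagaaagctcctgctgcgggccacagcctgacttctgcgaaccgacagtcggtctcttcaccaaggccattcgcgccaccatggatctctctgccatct
Dusp5: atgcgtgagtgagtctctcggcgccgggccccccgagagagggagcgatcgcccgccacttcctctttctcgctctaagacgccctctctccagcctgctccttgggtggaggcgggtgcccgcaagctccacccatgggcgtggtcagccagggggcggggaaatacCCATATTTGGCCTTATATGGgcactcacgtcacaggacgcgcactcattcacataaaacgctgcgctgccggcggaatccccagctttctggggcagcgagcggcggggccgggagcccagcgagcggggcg

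In the further groups most members were not called. Of 35 NF-kB and Toll-like receptor genes 2 rose, the adaptor Myd88 (74.1 and 68.9 to 113 and 89.8 CPM) and the subunit Nfkb1 (180.1 and 186 to 235 and 209 CPM), and 4 fell, the falls being of the chemokines Ccl3 (31.6 and 33.1 to 11.3 and 8.84 CPM) and Ccl4 (56.5 and 55.2 to 34.4 and 17.2 CPM), of Irak3 (23.9 and 22.8 to 6.64 and 9.66 CPM), an inhibitor of Toll signalling, and of Nfkbia (148 and 146 to 108 and 91.99 CPM), the inhibitor of NF-kB. Of 22 heat shock and chaperone genes 2 rose and 3 fell, Hspa8 going from 1893 and 1884 to 2685 and 2249 CPM and Hspe1 from 108 and 103 to 77.8 and 71.9 CPM. The others were the heat shock factor Hsf1 (56.1 and 52.6 to 73.05 and 66.2 CPM), which rose, and the mitochondrial chaperones Hspd1 (478 and 491 to 381 and 380.4 CPM) and Hspa9 (551 and 546 to 459 and 479.6 CPM), which fell. In the Bcl2 family and among p53 targets 2 of 31 rose, the death gene Bbc3 (11.01 and 10.9 to 21.5 and 16.4 CPM) and Sesn2 (18.2 and 20.2 to 38.2 and 25.9 CPM), and 3 fell, Mcl1, Gtse1 (102 and 101 to 76.4 and 84.04 CPM) and Rps27l (115 and 109 to 76.2 and 82.7 CPM). Of 8 Gimap GTPase genes 0 (0 unadjusted, 0 in DESeq2) rose and 0 (1 unadjusted, 2 in DESeq2) fell, Gimap6, the most abundant, standing at 176 and 179.8 CPM in the young and 153 and 181 CPM in the aged libraries. Of 79 cytosolic ribosomal protein genes 6 fell and 0 (0 unadjusted, 0 in DESeq2) rose (median -0.24), Rpl38 from 139 and 129.9 to 84.6 and 76.1 CPM and Rplp2 from 234 and 233 to 166 and 165 CPM. By the sign of the fitted change 74 of the 79 were lower and 5 higher, and 39 were lower at an unadjusted p under 0.05 in edgeR. Left-out libraries ended the calls of Myd88 (adjusted p 0.0333 to 0.172 without young replicate 1, young replicate 2 or aged replicate 1), Nfkb1 (0.0271 to 0.128 without young replicate 1, young replicate 2 or aged replicate 1), Nfkbia (0.0103 to 0.0223 without young replicate 1, young replicate 2 or aged replicate 2), Hspa8 (0.0117 to 0.0487 without young replicate 1, young replicate 2 or aged replicate 1), Hspa9 (0.0391 to 0.0981 without young replicate 1, young replicate 2 or aged replicate 1), Hsf1 (0.0196 to 0.0847 without young replicate 1, young replicate 2 or aged replicate 1), Bbc3 (0.0179 to 0.0502 without young replicate 1, young replicate 2 or aged replicate 1), Sesn2 (0.0136 to 0.118 without young replicate 1, young replicate 2 or aged replicate 1), Mcl1 (0.0102 to 0.0262 without young replicate 1, young replicate 2 or aged replicate 2), Gtse1 (0.0265 to 0.0893 without young replicate 1, young replicate 2 or aged replicate 1), Rps27l (0.0117 to 0.0197 without young replicate 1 or aged replicate 1) and Rplp2 (0.0162 to 0.0337 without any 1 library). With one library left out the members higher and lower were 0 to 3 and 3 to 5 for the NF-kB and Toll-like receptor list, 0 to 2 and 2 to 4 for chaperones, and 0 to 2 and 0 to 4 for the Bcl2 family and p53 targets. The ribosomal members lower were 1 to 2 with one library left out and 21 in DESeq2.

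The aged duplicates differed from each other more than the young. Over 9178 genes whose mean level reached 10 CPM, the root mean square of the log2 ratio was 0.269 between the young and 0.343 between the aged replicates, while each aged library lay 0.550 to 0.595 from the young ones. At least 2-fold apart were 30 genes in the young pair (0.327%) and 71 in the aged pair (0.774%), 46 of them with replicate 1 above and 25 with replicate 2 above. Of the 71, 28 were among the genes called with age, 3 higher and 25 lower. Over all genes tested 5.71% were called higher and 4.73% lower. Aged replicate 1 lay farther from the young mean at 676 of the 808 higher genes (83.7%) and at 442 of the 670 lower genes (66.0%). The same share was not counted over all genes tested, so these shares do not set the called genes apart from others. The median log2 difference of the higher genes was 0.83 in aged replicate 1 and 0.56 in aged replicate 2, and that of the lower genes -0.71 and -0.57. The groups behind the spread were described after the values were seen.

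**Figure D4:**
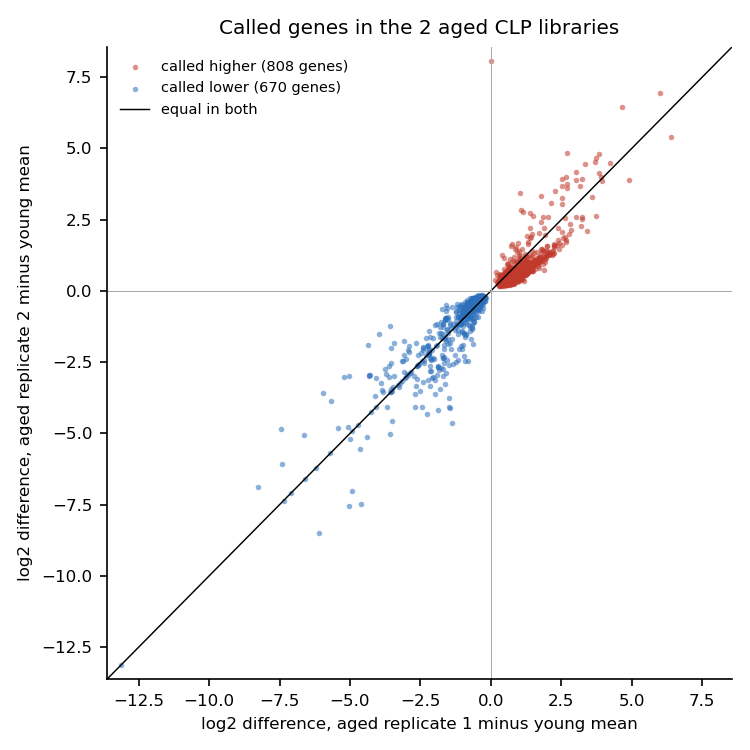
Log2 difference from the young mean in aged replicate 1 (x axis) and aged replicate 2 (y axis) of the 808 genes called higher and the 670 called lower, 1 point per gene, with a line where both would be equal. The higher genes lie mostly nearer to 0 in replicate 2, with medians of 0.83 and 0.56, and the exception with no reads in replicate 1 is Ly6c1.

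**Figure D5:**
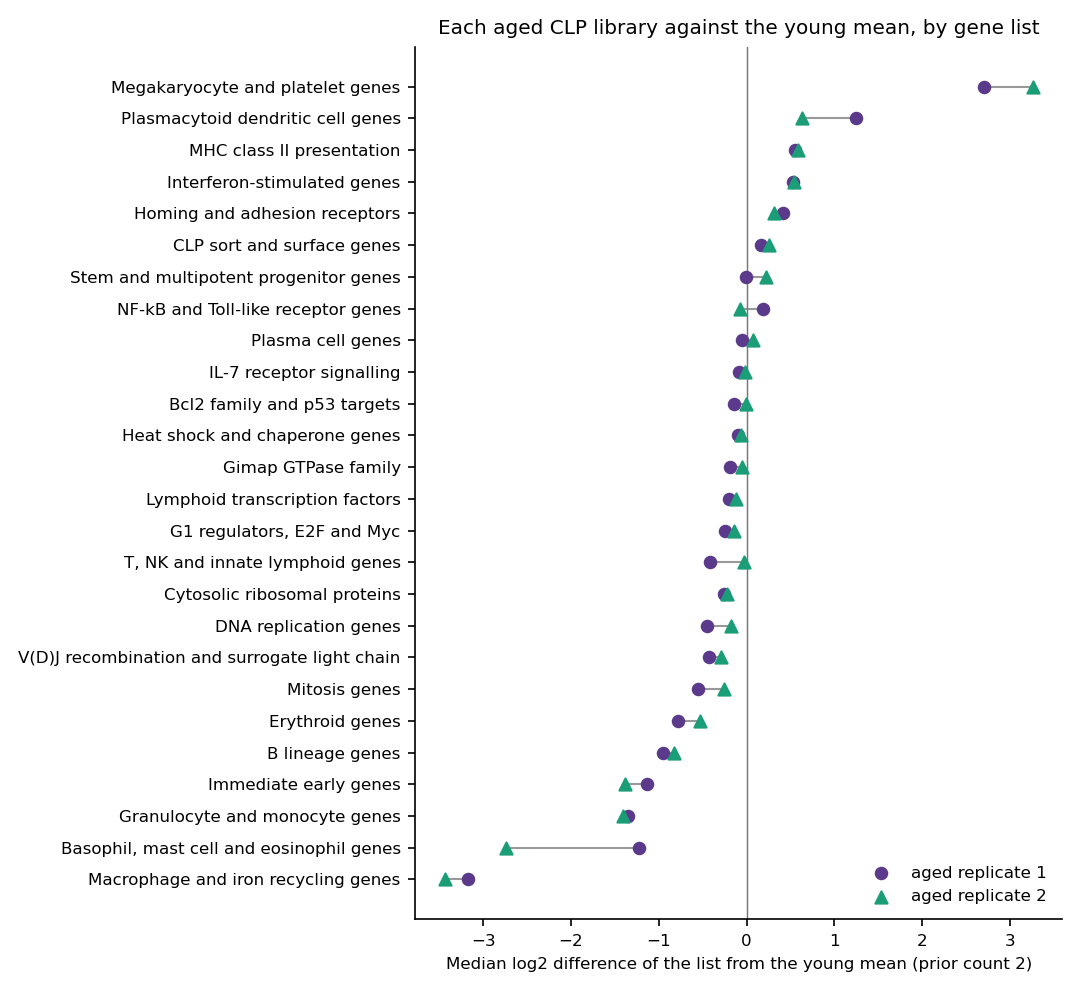
Median log2 difference of each gene list from the young mean (x axis) in aged replicate 1 (circles) and aged replicate 2 (triangles), 1 list per line (y axis). The plasmacytoid dendritic cell list lies at 1.24 and 0.63, and the mitosis list at -0.55 and -0.25.

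Of the 71 genes apart, 9 were on the basophil, mast cell and eosinophil list (6 with replicate 1 above), which had 16 members at 10 CPM or more. The immediate early list had 6 of 21 such members apart and the erythroid list 4 of 8, these last 10 all with replicate 1 above. Over all such genes 0.774% were apart. Of 621 such genes on any list, 22 were apart with replicate 1 above and 9 with replicate 2 above, so most of the 71 were on no list. Prg2, the eosinophil major basic protein, had 2796 counts in aged replicate 1 and 941 in aged replicate 2, and Fos 10146 and 4239. Gata2 and Elane went the other way, Gata2 with 9 and 58 counts, so no single direction held for myeloid genes. The heat shock pair Hspa1a and Hspa1b was higher in aged replicate 2, with a summed level of 122 and 124 CPM in the young and 120.00 and 339 CPM in the aged libraries. Some of the widest ratios were of genes that have similar copies, where an exchange of reads was not tested. Ass1, argininosuccinate synthase, had 28 and 662 counts in the aged pair and Gm5424 618 and 0, but their sum was 515 and 562 counts in the young and 646 and 662 in the aged libraries. The interferon-inducible GTPase Gvin1 had 38 and 825 counts, LOC100041034 579 and 0, and Gm6981 581 and 0, with a sum of 614 and 641 counts in the young and 1198 and 825 in the aged libraries. Hba-a2 likewise had 5702 and 14 counts, with the sum over both alpha globin genes as given above. For Gm10052 (4281, 4608, 161 and 4615 counts in young 1, young 2, aged 1 and aged 2), Tctn1 (1915, 2191, 337 and 3352) and Map3k12 (33, 413, 323 and 24) a single library or a crossed pair stood apart, and none was called with age, though Gm10052 was without aged replicate 2 (adjusted p 0.00321).

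To see where the change with age in CLPs differed from that in related fractions, it was set against the lymphoid-primed multipotent progenitor fraction MPP4 and against the granulocyte and macrophage progenitor (GMP), sorted from the same ages. The difference of the 2 age changes was tested directly. Changes were compared with their sign, so a smaller change in CLPs can be a larger fall or a smaller rise. Against MPP4, 1059 genes had a greater (7.48%) and 1440 a smaller change (10.2%) in CLPs, and against GMP 882 a greater (6.23%) and 956 a smaller change (6.75%). Among all genes tested 10.3% were higher and 6.27% lower with age in MPP4, and 9.93% higher and 8.97% lower in GMP. Of the 57 mitosis genes 36 rose with age in MPP4 and 39 in GMP, and the change in CLPs was smaller at 46 and at 47 of them. Of the 52 replication genes 36 rose in MPP4 and the change in CLPs was smaller at 41, while in GMP 7 rose and 12 fell and the change was smaller at 9. Rrm2, for example, had log2 fold changes of -0.55 in CLPs, 1.06 in MPP4 and -0.29 in GMP, with a difference from MPP4 of -1.61 ± 0.11 (SE), adjusted p 3.01e-09.

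Of the 21 megakaryocyte genes the change in CLPs was greater at 13 than in MPP4 and at 11 than in GMP. Pf4 had log2 fold changes of 4.02 in CLPs, -1.19 in MPP4 and -0.32 in GMP. Plasmacytoid dendritic cell genes had a greater change at 9 and 7 of 25 and a smaller one at 0 and 0. Members without reads in MPP4 and GMP, Klk1 and Klk1b27 among them, could not be called here. An uncalled member is therefore no sign of an equal change. Of the 20 MHC class II genes 5 were higher and 1 lower with age in MPP4, and 0 and 1 in GMP. The change in CLPs was greater at 5 and 6 of them and smaller at 0 and 0. H2-Aa, H2-Ab1, H2-Eb1 and Cd74 had log2 fold changes of 1.57, 1.32, 1.87 and 1.40 in MPP4. Their differences from MPP4 did not pass the test (adjusted p of 0.336 or more). For interferon-stimulated genes the change was greater than in MPP4 at 21 of 63, and greater than in GMP at 10 and smaller at 4, GMP itself having 21 members higher with age. Igtp had log2 fold changes of 1.38 in CLPs, 0.64 in MPP4 and 0.81 in GMP, and neither difference passed the test (adjusted p 0.0124 and 0.0649). Immediate early genes fell with age in MPP4 as well, with 14 of 30 lower and 2 higher. The change in CLPs was smaller, that is, lower on the signed log2 scale, than in MPP4 at 10 and greater at 2. It was smaller than in GMP at 17 and greater at 1, and in GMP 14 rose and 2 fell. Egr1 changed by -2.95 in CLPs, by -0.35 in MPP4 (adjusted p 0.0586) and by 7.72 in GMP. In GMP it went from 0.349 CPM in the young, a level of few reads, to 76.0 CPM in the aged. Granulocyte and monocyte genes had a smaller signed change in CLPs than in MPP4 and GMP at 15 and 11 of 30 and a greater one at 0 and 3. For basophil, mast cell and eosinophil genes the signed change was smaller at 5 and 13 of 25 and greater at 2 and 2. Prss34 had no reads in aged CLPs or aged MPP4, so its difference from MPP4 could not be called. Macrophage genes fell in all 3 fractions, 13 of 22 in CLPs, 11 in MPP4 and 9 in GMP, and the change was smaller in CLPs, that is, a larger fall or a fall against none, at 8 and 4, and greater at 2 and 3. Erythroid genes fell in the other fractions as well. Of 23 members 4 were lower and 1 higher with age in MPP4 (median -1.85), and 8 lower and 0 higher in GMP (median -1.54). The change in CLPs was smaller at 0 and 0 of them and greater at 0 and 1.

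The young fraction in which a gene was otherwise highest also differed between the directions. Among the 808 genes higher in aged CLPs, stem cells (HSC) were the highest of the other young fractions at 38.2% and GMP at 30.4%, against 25.1% and 21.5% of all genes tested. The megakaryocyte and erythroid progenitor (MEP) was highest at 11.8% of them, against 26.01% of all genes. Among the 670 lower genes MEP was highest at 43.9%, GMP at 23.9% and HSC at 12.5%. These shares describe levels in young mice and were not tested.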

How the data were processed

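Bone marrow fractions were sorted from young and aged mice and sequenced as polyadenylated RNA, 32 libraries in 16 groups of 2. Per the labels and the methods, the authors aligned reads to mm10 with TopHat2 2.0.13 and Bowtie2 2.1.0 and estimated gene abundance with StringTie. The deposited table of gene counts (24421 genes, unnormalized) was used. A deposited normalized table was not used, and neither were the authors' comparison tables, which hold fold changes and p-values. No use of strand was stated, so reads of overlapping, antisense or near-identical genes may be exchanged, and counts without molecular identifiers make intervals and floors cover counting error only. A spreadsheet had turned 27 gene names into dates (0.188% of counts), and those names were not reported. Some results are not reported here.

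Counts were fitted in edgeR 4.0.16 (R 4.3.3, limma 3.58.1) with TMM scaling, filterByExpr over the 16 groups, 1 mean per group and the quasi-likelihood F-test (glmQLFit, glmQLFTest) on 16 residual degrees of freedom. The comparison of aged and young CLPs and its difference from MPP4 and from GMP were tested with Benjamini-Hochberg adjustment over all 14154 genes and called at an adjusted p under 0.01. Duplicates were compared over genes whose mean level reached 10 CPM, with a prior count of 2. Genes without reads at one age were given a bound against a floor of 3 counts per library, and genes with 1 to 3 counts at one age a ratio with a 95% counting interval. Positions came from GENCODE M21 (13565 genes matched) and promoter windows from RefSeq GRCm38.p6 (10646 genes matched).

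The comparison, the 26 gene lists and the tests were chosen with earlier results of these data known, so nothing here is independent support. Genes were named by these rules: the sort antigens, the 10 largest rises and falls with a mean of at least 10 CPM and no overlap, up to 4 called members of each list with the largest changes (in a list with none, its most abundant member), the 5 widest ratios each way between the aged libraries, and the 3 largest called differences each way from MPP4 and GMP. Other list members were named for their known role after their values were seen. Tested on simulated data for the CLP comparison (14014 genes, 200 of them changed), the test recovered 72 of 100 changes of 1 and 89 of 100 changes of 2 on the log2 scale, with 1 false call. With the 4 CLP libraries alone it recovered 35 and 81, with 5 false calls. All simulated libraries shared 1 spread per gene, so these counts do not cover a noisier pair. Between the real duplicates the chi-square per degree of freedom was 18.6 in aged CLPs, rank 2 from the largest of 16 groups, and 5.96 in young CLPs. Alternatives were DESeq2 1.42.0 and its size factors, no filter, a threshold of 0.05, a minimum change, a replicate block, the 4 CLP libraries alone and each CLP library left out.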

Additional observations from a re-analysis of the deposited data

Results flagged for a closer look

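Every result here is a difference between the age change in CLPs and that in another fraction, on the log2 scale, past an adjusted p of 0.01 in edgeR. Against MPP4 1059 genes had a greater and 1440 a smaller signed change, and against GMP 882 and 956. Against MPP4 the widest differences with a mean of at least 10 CPM were those of the platelet genes Ppbp (8.65), Vwf (8.00) and Pf4 (5.21) in one direction, and of Fcna (-8.05), Mcpt8 (-7.38) and Emilin2 (-5.93) in the other. Emilin2, a matrix glycoprotein gene, stood at 35.3 and 39.6 CPM in the young and 3.09 and 3.27 CPM in the aged libraries and had a log2 fold change of 2.38 in MPP4.

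Against GMP they were Vwf (7.53), Uchl1 (5.36) and Pf4 (4.34), and Prss34 (-15.56), Egr1 (-10.67) and Plk2 (-9.35). Uchl1, a ubiquitin hydrolase gene, fell in CLPs (34.7 and 27.3 to 17.5 and 18.7 CPM) and had a log2 fold change of -6.14 in GMP, so that the positive difference is a smaller fall. The age call of Uchl1 (adjusted p 0.0103 to 0.107 without any 1 library) was lost with a library left out. Plk2, a polo-like kinase gene, fell in CLPs (38.5 and 36.7 to 5.71 and 2.90 CPM) and had 6.22 in GMP. Values for genes without reads in a group, Fcna and Prss34 among them, depend on the prior count of the fit and are no bounds.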

How the results depend on the processing

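In CLPs 808 genes were higher and 670 lower, and no called gene took the opposite direction under any alternative. The counts moved to 40 and 88 with the 4 CLP libraries alone (38 and 78 of them shared), to 1366 and 1246 at an adjusted p under 0.05, and to 228 and 236 with a log2 change of at least 1. They ranged from 317 to 817 and from 257 to 679 with one CLP library left out. DESeq2 gave 1164 and 989, DESeq2's size factors 842 and 655, and no filter 737 and 650. The differences from MPP4 (1059 greater, 1440 smaller) moved to 1689 greater in DESeq2, 1744 greater at 0.05, and 504 and 329 with the minimum change, and ranged from 638 to 1071 and 1051 to 1498 with a library left out. Those from GMP (882, 956) moved to 1519 and 1625 at 0.05 and 276 and 492 with the minimum change, and ranged from 532 to 783 and 654 to 920. Genes at least 2-fold apart numbered 247 (young) and 410 (aged) from a mean of 1 CPM. The causes were not tested, beyond the fewer samples in the smaller fits.

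The replicate block, within fractions, gave 734 higher and 586 lower (660 and 520 shared). The numbers pair nothing: the deviations of same-numbered CLP libraries had a correlation of -0.049, so a call lost under the block is no weaker effect.

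Of the genes named, 17 uncalled genes changed sign when a library was left out. The log2 fold change ranged from -0.28 to 0.34 for Csf1r, from -0.26 to 0.17 for Cxcr4, from -3.34 to 2.28 for Map3k12, from -0.26 to 0.38 for Cd86, from -0.058 to 0.00401 for Ikzf1, from -0.23 to 0.026 for Gimap6, from -2.70 to 0.57 for Tctn1, from -0.72 to 0.069 for Jchain, from -12.09 to 0.23 for Gm5424, from -11.85 to 0.37 for LOC100041034, from -0.71 to 3.81 for Ass1, from -2.54 to 1.86 for Gvin1, from -0.14 to 0.039 for Blnk, from -0.064 to 0.10 for Cdkn1a, from -0.026 to 1.51 for Hspa1a, from -0.069 to 1.42 for Hspa1b and from -0.043 to 0.26 for Rag2. The sign turned without young replicate 1 for Csf1r and Cxcr4, without young replicate 2 for Map3k12, Cd86 and Ikzf1, without aged replicate 1 for Gimap6, Tctn1, Cxcr4 and Jchain, and without aged replicate 2 for Gm5424, LOC100041034, Map3k12, Ass1, Gvin1, Blnk, Cd86, Cdkn1a, Csf1r, Hspa1a, Hspa1b and Rag2. With 2 libraries per age and 3 counts worth 0.223 to 0.247 CPM, small changes in low genes were not detectable.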
